A study of Drosophila melanogaster with 17 samples.

Results

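The translation factors are the soluble proteins that start, extend and end protein synthesis on the cytosolic ribosome. They were taken from the gene tables by symbol, as every gene named eIF, eEF or eRF together with pAbp, the poly(A)-binding protein, and 54 of the 16977 genes met this rule. They comprise 3 scanning and start codon factors, 3 subunits of eIF2, 5 of eIF2B, 16 of eIF3, 7 cap-binding proteins, 7 helicase, scaffold and poly(A)-binding factors, 3 factors with other roles in initiation, 8 elongation factors and 2 termination factors. In initiation, eIF4E holds the cap of the mRNA, eIF4G joins it to the helicase eIF4A and to pAbp, and the small ribosomal subunit arrives with eIF3 and with the initiator tRNA carried by eIF2. The exchange factor eIF2B recharges eIF2 with GTP. In elongation, eEF1alpha delivers aminoacyl-tRNA, the eEF1beta, eEF1delta and eEF1gamma subunits recharge it, eEF2 moves the ribosome along, and eEF5 helps it through difficult peptide bonds.

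RNA bound to Flag-tagged ribosomes was purified by translating ribosome affinity purification (TRAP) from *Drosophila melanogaster* and sequenced. Heads came from DIP-gamma-GAL4/UAS-Flag-GFP-RpL10 flies (3 TRAP samples) and from UAS-Flag-GFP-RpL10/+ flies (3 controls), all 2 days old. Larval axonal sections came from OK371-GAL4/UAS-Flag-GFP-RpL10 larvae (3 TRAP samples) and UAS-Flag-GFP-RpL10/+ larvae (3 controls) at the L3 stage, and legs came from 2-day-old DIP-gamma-GAL4/UAS-Flag-GFP-RpL10 flies (3 TRAP samples) and UAS-Flag-GFP-RpL10/+ flies (2 controls). In TRAP animals the driver expresses the tagged ribosomal protein in a subset of neurons (DIP-gamma-GAL4) or in motor neurons (OK371-GAL4), but the same transgene is carried by the controls, where it is expressed without a driver. A value in a control is therefore not an empty background, and a fold change compares driven plus leaky recovery with leaky recovery alone. Each sample pooled several animals. Heads were taken from males and legs from males and females in equal numbers. The study dropped another leg control for DNA contamination.

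The 17 libraries held between 29512310 and 88324615 counts, and 3 counts, taken as the detection limit, were worth 0.102 CPM or less, CPM being a gene's counts relative to the total of its library. Values below are CPM after scaling with edgeR's TMM factors, and tests are edgeR's quasi-likelihood F-test (two-sided) with Benjamini-Hochberg adjustment over all genes of the tissue, called under an adjusted p of 0.05. The biological coefficient of variation over all genes was 0.559 in heads, 1.07 in larval sections and 0.670 in legs. In heads, 9 of 10 neuronal marker genes were higher in TRAP (summed level 1222 to 4351 CPM in TRAP and 690 to 818 CPM in controls), and 7 of 11 muscle markers were lower (8926 to 15103 CPM in TRAP and 21722 to 31631 CPM in controls). In larval sections all 8 salivary gland markers were higher in TRAP (3502 to 37922 CPM in TRAP and 75.5 to 190.0 CPM in controls), and the neuronal sums overlapped (56.1 to 365 CPM in TRAP and 60.4 to 159 CPM in controls). In legs no neuronal marker was called, with sums of 287 to 335 CPM in TRAP and 290 to 347 CPM in controls, and muscle markers summed to 13792 to 16804 CPM in TRAP against 21108 to 21231 CPM in controls without a single call. Male germline markers were higher in larval TRAP sections as a sum (576 to 1867 CPM in TRAP and 181 to 559 CPM in controls, none of 6 called). The labels' tissue and source fields call the larval and leg material axonal sections (legs were taken whole), and muscle markers exceeded neuronal ones in every library of both.

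Translation factor transcripts took a small part of each library. In heads they held 0.970%, 0.984% and 1.1205% of all counts in TRAP, against 0.761%, 0.711% and 0.837% in controls. In larval sections they held 1.21%, 0.831% and 1.79% in TRAP and 1.67%, 1.32% and 1.84% in controls, and in legs 0.746%, 0.747% and 0.760% in TRAP and 0.645% and 0.610% in controls. The groups did not overlap in heads and legs and overlapped in larval sections. The direction in heads depended on scaling, because after TMM the summed level was 8299 to 9188 CPM in TRAP and 8627 to 9625 CPM in controls.

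**Figure D1:**
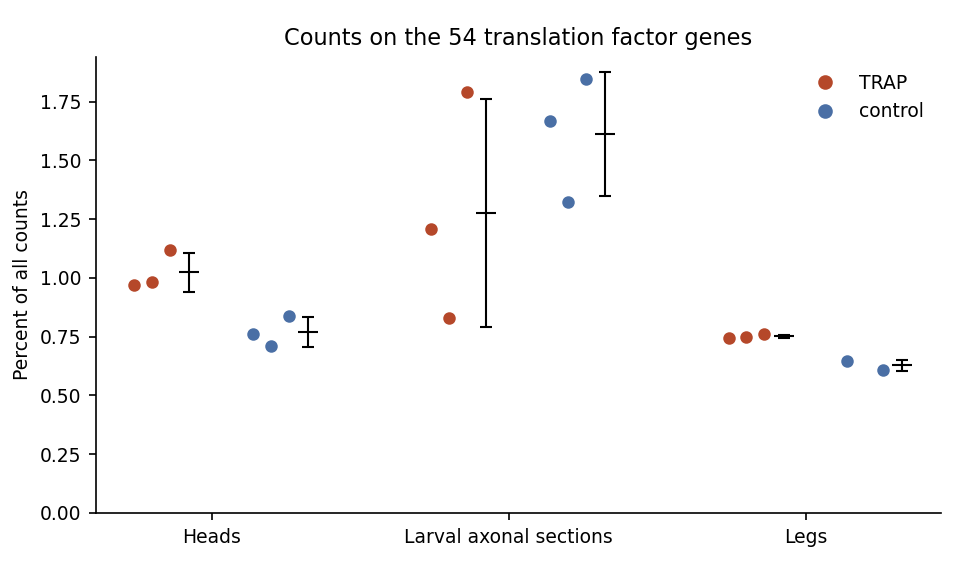
Percent of all counts that fell on the 54 translation factor genes (y axis) in each library of heads, larval axonal sections and legs (x axis). Points are libraries, TRAP in red left of control in blue, with the mean and SD as black bars; in heads and legs every TRAP library lies above every control, and in larval sections the groups overlap.

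Compared per kilobase of exon, eEF1alpha1 was the most abundant factor in every group except leg controls. It reached 853 CPM per kb in TRAP heads and 868 CPM per kb in control heads, 2102 and 1937 CPM per kb in TRAP and control larval sections, and 765 and 572 CPM per kb in TRAP and control legs. eIF1, which guards the choice of start codon, was first in leg controls with 623 CPM per kb. In TRAP heads eIF1 (627 CPM per kb), eEF5 (456), eIF4A (274) and eEF2 (266) followed eEF1alpha1. At the other end, 10 members stayed under 10 CPM in the mean of every group. They were the paralogues eIF3d2, eIF3f2, eIF3g2, eIF4E3, eIF4E4, eIF4E5, eIF4E6, eIF4E7 and eIF4H2, and eEFSec, the factor for selenocysteine. Of these, eIF3d2 and eIF4H2 had 0 counts in all 5 leg libraries, which allows at most 0.0455 CPM in any of them (counting error only), so that 52 members were tested in legs and all 54 in heads and larval sections.

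The first comparison asked which factors differ between DIP-gamma-GAL4 TRAP recovery and control recovery in heads. Of 54 members, 1 was higher in TRAP and 3 were lower, whereas 7.23% of all 16638 genes tested were higher and 9.41% lower. Every TRAP sample exceeded every control for 2 members (16.3% of all genes) and fell below every control for 14 (18.2% of all genes). The members' median log2 fold change was -0.04, against 0.32 over all genes. Many of those genes are rare. When the background was restricted to genes averaging 10 CPM or more, a limit chosen after the data were seen, 1 of 43 members was higher (background 11.2%) and 3 were lower (19.7%), 1 member lay above every control (15.6%) and 13 lay below (34.2%). There the member median was -0.08 and that of all genes -0.16. Neither share of called members exceeded its background.

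The member higher in TRAP heads was eIF4EHP (FBgn0053100; chromosome 3R, 24063077 to 24108960, BDGP6), a cap-binding protein related to eIF4E that does not bind eIF4G and is known as a translational repressor. It had 153, 118 and 71.4 CPM in TRAP heads, against 50.0, 56.7 and 60.2 CPM in control heads. All TRAP values lay above all controls, but TRAP replicate 3 was only slightly higher than control replicate 3. The means were 114 ± 41.1 CPM in TRAP and 55.6 ± 5.16 CPM in controls (SD, n = 3 each), with a log2 fold change of 1.04 (SE 0.26, edgeR adjusted p = 0.0226). The call was lost when TRAP replicate 2 or any 1 of the controls was left out, with edgeR adjusted p-values up to 0.0981 and log2 fold changes between 0.97 and 1.10 in those 4 fits. The gene overlaps the neuronal gene Syx1A, a syntaxin of the synaptic vesicle fusion machinery, on the same strand. Syx1A stood at 268 CPM in TRAP and 122 CPM in controls (log2 fold change 1.13, edgeR adjusted p = 0.0297), and whether reads were shared between the 2 genes was not tested. The neuronal marker sum had the same order of TRAP replicates as eIF4EHP (4351, 3118 and 1222 CPM in replicates 1 to 3). This order was not particular to eIF4EHP. Among 44 members, head TRAP replicate 1 was the highest TRAP library for 29, and replicate 3 was the lowest for 31. The part of the neuronal sum in the eIF4EHP result was not tested.

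The largest decrease among members of at least 10 CPM belonged to eEF1delta (FBgn0032198; chromosome 2L, 10232507 to 10234450), an exchange factor subunit of the eEF1 complex. Its level was 77.9, 66.3 and 62.3 CPM in TRAP heads and 129, 139 and 128 CPM in control heads. The groups were far apart relative to their spread, with means of 68.8 ± 8.11 and 132 ± 6.35 CPM in TRAP and controls (log2 fold change -0.94, SE 0.17, edgeR adjusted p = 0.00444). It was called in 14 of 15 alternative settings and lost only in the fit of all 3 tissues together (edgeR adjusted p = 0.155). No other gene of the tables overlaps it.

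The other 2 decreases were in initiation. eIF2Balpha (FBgn0039726; chromosome 3R, 29934582 to 29935888), the regulatory subunit through which eIF2B senses phosphorylated eIF2, had 28.3, 25.2 and 22.9 CPM in TRAP heads and 46.0, 45.4 and 42.4 CPM in control heads. The groups did not overlap, and the log2 fold change was -0.81 (SE 0.18, edgeR adjusted p = 0.0114). eIF3e (FBgn0025582; chromosome 3L, 16785242 to 16786941), a subunit of the eIF3 scaffold, had 31.8, 24.6 and 36.0 CPM in TRAP and 45.8, 53.8 and 67.4 CPM in controls. Its groups did not overlap either, with a log2 fold change of -0.85 (SE 0.22, edgeR adjusted p = 0.024). Both were called in 10 of 15 alternative settings. Leaving out control replicate 2 or TRAP replicate 2 ended both calls, as did leaving out control replicate 1 for eIF2Balpha and control replicate 3 for eIF3e, with edgeR adjusted p-values up to 0.0713 for eIF2Balpha and 0.125 for eIF3e. Scaling by library size alone also ended both, with log2 fold changes of -0.33 for eIF2Balpha (edgeR adjusted p = 0.155) and -0.36 for eIF3e (edgeR adjusted p = 0.295). On the other strand, CG42557 and CG42558 overlap eIF2Balpha (log2 fold change -0.33 each in heads, edgeR adjusted p = 0.324). CG9706 overlaps eIF3e on the other strand (-0.61, edgeR adjusted p = 0.0742), and whether reads were shared was not tested. Glial markers summed to 1016 to 1176 CPM in TRAP heads and 1400 to 1793 CPM in control heads, none of 6 called. Muscle marker levels were lower in TRAP heads, as given above, and whether either bears on these decreases was not tested. Fewer cells of a type and less RNA per cell cannot be told apart in such bulk samples.

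**Figure D2:**
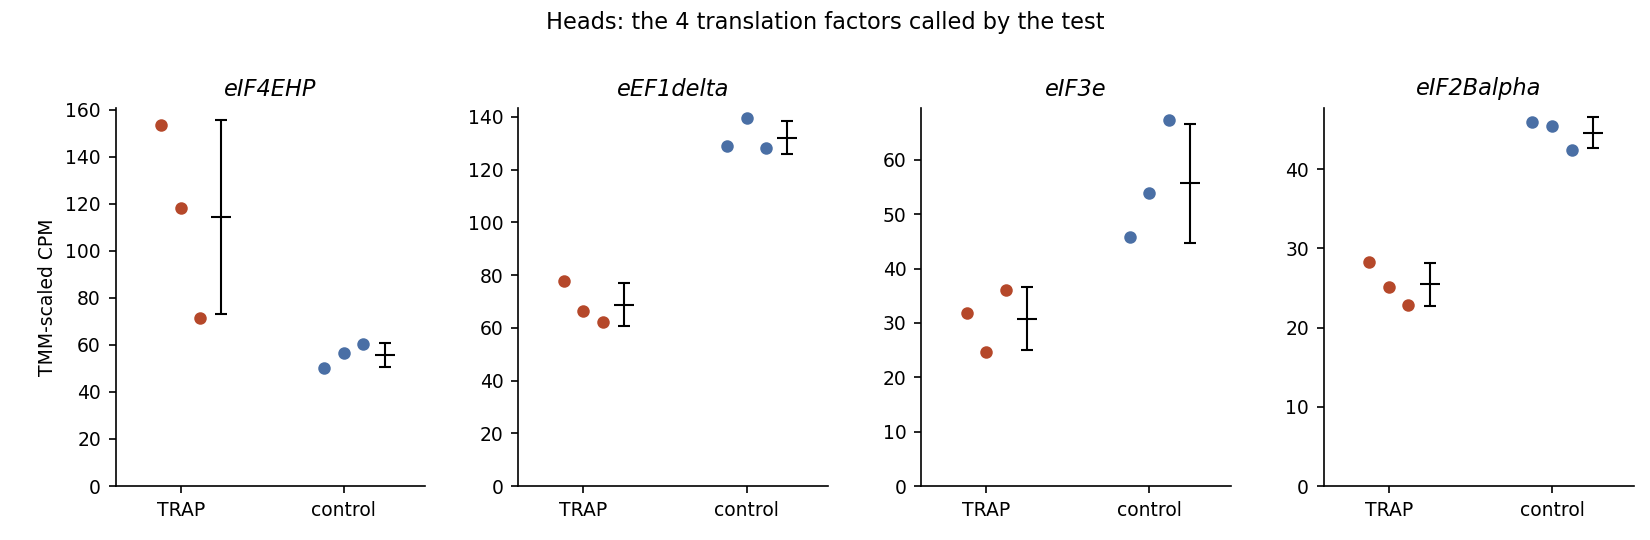
TMM-scaled CPM (y axis, from 0) of eIF4EHP, eEF1delta, eIF3e and eIF2Balpha in the 3 TRAP (red) and 3 control (blue) head libraries, with mean and SD as black bars. The eIF4EHP values spread from 71.4 to 153 CPM in TRAP and lie above the controls, and the other 3 genes lie lower in every TRAP library than in any control.

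Of the other 4 eIF2B subunits none was called, and their log2 fold changes lay between -0.08 (eIF2Bgamma) and 0.06 (eIF2Bbeta). Of 16 eIF3 genes only eIF3e was called, and the median of all 16 was -0.13. In eIF2, eIF2beta, which contacts eIF5 and eIF2B, had 76.7, 72.4 and 49.2 CPM in TRAP against 105, 113 and 89.1 CPM in controls (log2 fold change -0.63, edgeR adjusted p = 0.0672), while eIF2alpha and eIF2gamma had log2 fold changes of -0.18 and -0.03. eIF2beta passed the threshold in DESeq2's Wald test (adjusted p = 0.0258) and in edgeR once replicate numbers were fitted as a block (adjusted p = 0.0296). After TMM scaling both release factors lay lower in every TRAP library without a call. With library size alone their log2 fold changes were 0.14 (eRF1) and 0.24 (eRF3). eRF1, which reads stop codons, averaged 114.8 CPM in TRAP and 144.9 CPM in controls, and eRF3, its GTPase partner, 44.6 and 53.1 CPM in TRAP and controls.

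Of the abundant core factors, eEF1alpha1, eIF4A and eEF2 differed in heads by less than the SD of their controls. eEF1alpha1 averaged 2101 ± 67.4 CPM in TRAP heads and 2138 ± 87.3 CPM in control heads, eIF4A 679 ± 36.5 and 709 ± 101 CPM in TRAP and controls, and eEF2 813 ± 32.8 and 778 ± 116 CPM (SD, n = 3 each). After TMM scaling eEF5 was lower in every TRAP head library, at 368 ± 14.4 CPM in TRAP and 478 ± 56.05 CPM in controls (SD, n = 3 each), without a call (log2 fold change -0.38, edgeR adjusted p = 0.169). Its log2 fold change was 0.11 with library size alone. eIF1 averaged 427 ± 114.8 CPM in TRAP and 573 ± 66.6 CPM in controls (log2 fold change -0.42, edgeR adjusted p = 0.238), and its groups overlapped. pAbp had 497, 547 and 841 CPM in TRAP and 366, 458 and 731 CPM in controls, so the groups overlapped, although TRAP was the higher member of each same-numbered pair. The log2 fold change of pAbp was 0.28 (edgeR adjusted p = 0.554). eIF4E1, the main cap-binding protein, had 348, 261 and 208 CPM in TRAP and 321, 343 and 357 CPM in controls, overlapping groups with a log2 fold change of -0.32 (edgeR adjusted p = 0.337).

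eEF1alpha2 (FBgn0000557; chromosome 3R, 31738468 to 31743306), the second gene for the tRNA-delivering factor, had 597, 442 and 375 CPM in TRAP heads and 206, 226 and 410 CPM in control heads. Control replicate 3 lay above TRAP replicate 3, so the groups overlapped, and the log2 fold change of 0.75 (SE 0.29) missed the threshold (edgeR adjusted p = 0.112). It passed when replicate numbers were blocked (edgeR adjusted p = 0.0462), in DESeq2 (adjusted p = 0.0308), and in edgeR without control replicate 3 or without TRAP replicate 3. Of the summed level of the 2 eEF1alpha genes per kb, eEF1alpha2 made up 21.4%, 16.4% and 13.8% in TRAP heads and 7.88%, 9.07% and 15.5% in control heads. How reads that match both paralogues were counted is not given in the sources used here. In larval control replicate 1, eEF1alpha1 had 408974 counts and eEF1alpha2 had 24, so few reads of eEF1alpha1 were assigned to eEF1alpha2 there.

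The paralogues eIF4E3 and eIF4G2 had higher fitted values in TRAP heads without a call in edgeR. eIF4E3, a cap-binding paralogue needed for spermatogenesis, had 0.739, 0.604 and 2.08 CPM in TRAP and 0.127, 0.267 and 0.255 CPM in controls, and every TRAP value exceeded every control. eIF4G2, a testis-enriched scaffold paralogue, had 46.7, 48.8 and 28.0 CPM in TRAP and 23.7, 32.5 and 24.0 CPM in controls, overlapping groups with a log2 fold change of 0.62 (edgeR adjusted p = 0.126). DESeq2 called both (adjusted p = 0.0404 and 0.0395 for eIF4E3 and eIF4G2). The 6 male germline markers summed to 7.07 to 20.0 CPM in TRAP heads and 0.509 to 5.65 CPM in control heads, with 4 of 6 above every control, 1 of 6 called and none at 0 in every library. Genes without a count numbered 508 to 2519 in TRAP and 1966 to 3181 in controls, and the part of either in these values was not tested.

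The number of calls in heads depended on the test and the scaling. DESeq2 called 4 members higher and 4 lower, against 12.4% and 10.9% of all genes. The replicate block gave 2 higher and 4 lower (background 8.45% and 10.4%). With library size as the only scaling the median of all genes moved up by 0.49, and 9 members were higher and 1 lower (background 17.5% and 2.78%); the member median then stood 0.38 below that of all genes, close to the 0.36 under TMM. Without 1 library at a time the count of higher members was between 0 (without control replicate 1, control replicate 2 or TRAP replicate 2) and 3 (without TRAP replicate 3), and the count of lower members was between 1 (without control replicate 2 or TRAP replicate 2) and 6 (without TRAP replicate 1).

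**Figure D3:**
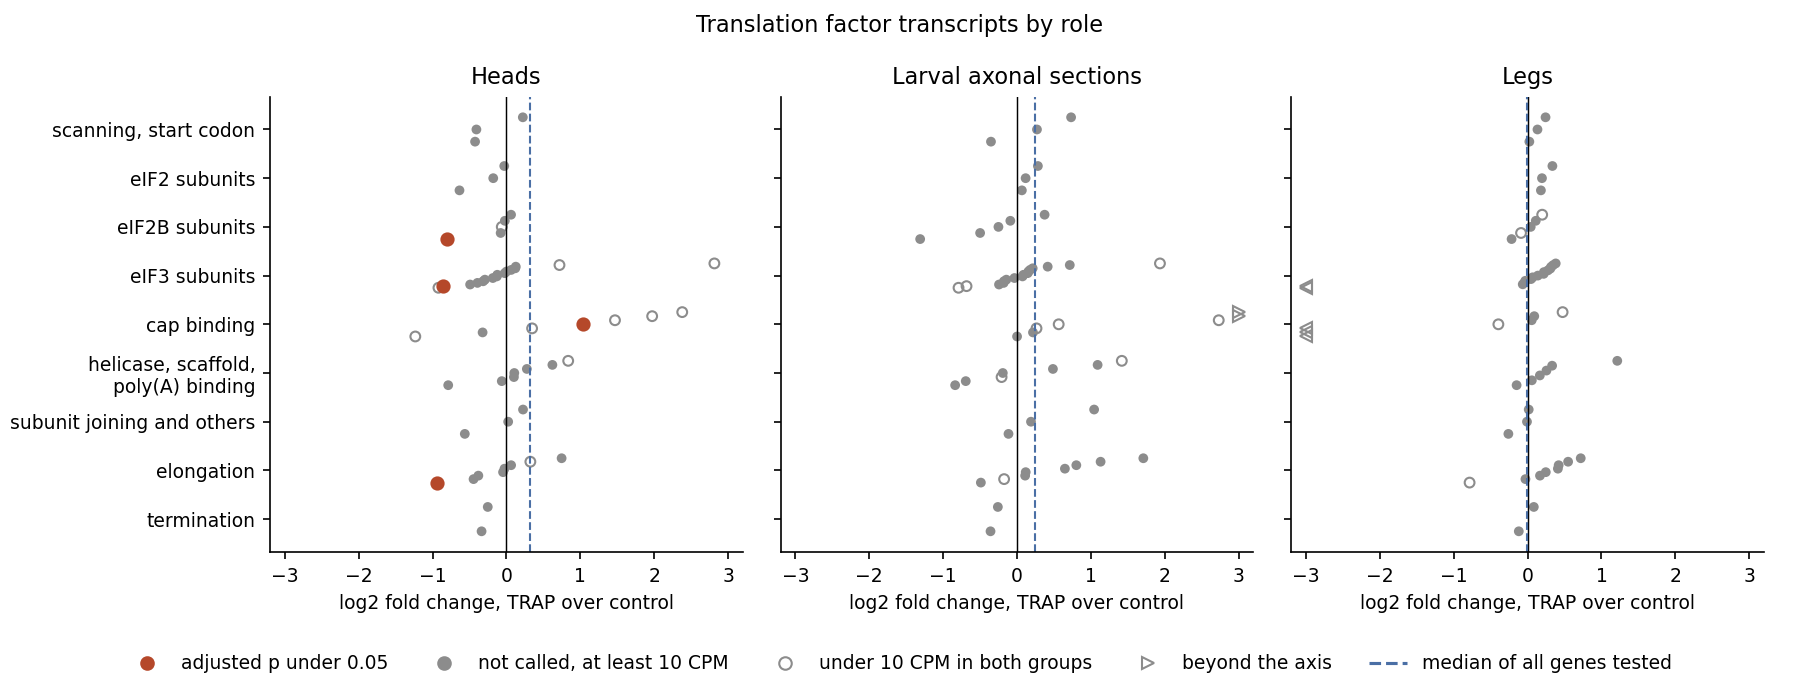
Log2 fold change of TRAP over control (x axis) for each translation factor tested, grouped by role (rows), in heads, larval axonal sections and legs. Red points are called, open points are under 10 CPM in both groups, triangles lie beyond the axis and the dashed line is the median of all genes tested; the 4 red points are all in heads, and in legs most filled points lie to the right of 0.

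In larval axonal sections the question was which factors differ between OK371-GAL4 TRAP recovery and control recovery. No member was called in either direction by edgeR, where 0.234% of all 16702 genes were higher and 0.0120% lower. At an unadjusted p under 0.05, 3 members were higher (4.13% of all genes) and 0 lower (2.58% of all genes). DESeq2 called 1 member higher and 0 lower (background 1.35% and 0.234%). Every TRAP library lay above every control for 2 members (4.53% of all genes) and below for 2 (5.76% of all genes). The member median was 0.12, against 0.25 over all genes, and turned to -0.16 without TRAP replicate 2, the library with the highest salivary gland sum (37922 CPM).

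eIF4H1 (FBgn0262734; X chromosome, 16448665 to 16454972), which stimulates the helicase eIF4A, had the clearest separation in larvae after TMM scaling. It had 168, 201 and 222 CPM in TRAP sections and 106, 86.6 and 85.6 CPM in controls. Its log2 fold change was 1.09 (SE 0.43), with an edgeR adjusted p of 0.669 and a DESeq2 adjusted p of 0.0123. The DESeq2 call was lost with a filter on at least 1 count in every sample. Scaled by library size alone, eIF4H1 had 225, 104 and 219 CPM in TRAP and 104, 98.6 and 112 CPM in controls, so the groups overlapped. After TMM scaling eEF1beta, an exchange factor subunit like eEF1delta, also had every TRAP value above every control, at 306, 672 and 492 CPM in TRAP and 264, 176 and 230 CPM in controls (log2 fold change 1.13, SE 0.52, edgeR adjusted p = 0.727). It stayed above every control by library size alone (410, 346 and 485 CPM in TRAP, 260, 201 and 301 CPM in controls). The third gene with an unadjusted p under 0.05, the cap-binding paralogue eIF4E5, rested on TRAP replicate 1, with 7.84, 0 and 0.123 CPM in TRAP and 0.0141, 0.139 and 0.01003 CPM in controls.

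pAbp went the other way in larvae. It had 628, 813 and 1204 CPM in TRAP sections and 1423, 1474 and 1830 CPM in controls. Every TRAP value was below every control, but the log2 fold change of -0.84 (SE 0.64) was not called (edgeR adjusted p = 0.852). eIF2Bepsilon, the catalytic subunit of eIF2B, was the other member with every TRAP value below, at 6.79, 1.36 and 5.51 CPM in TRAP and 13.4, 13.7 and 6.92 CPM in controls. eIF4G1, the main scaffold that pAbp binds, had 93.4, 62.7 and 81.2 CPM in TRAP and 87.1, 152 and 144 CPM in controls, overlapping groups with a log2 fold change of -0.69.

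After TMM scaling, single libraries set other larval values. eIF6, which keeps the ribosomal subunits apart, reached 53.5 CPM in TRAP replicate 2, against 19.2 and 16.2 CPM in TRAP replicates 1 and 3 and 20.1, 10.2 and 12.8 CPM in controls. The TMM factors of larval TRAP replicates 1 to 3 were 1.34, 0.515 and 0.986. Scaled by library size alone, eIF6 had 25.8, 27.5 and 15.9 CPM in TRAP and 19.8, 11.6 and 16.7 CPM in controls. eEF1alpha2 had 85.1, 7.64 and 3.72 CPM in TRAP sections and 0.339, 14.4 and 14.7 CPM in controls, a range that spans both groups. TRAP replicate 1, with the highest eEF1alpha2 value, also had the highest neuronal sum (365 CPM), and this was not tested further. eEF2 averaged 1403 ± 546 CPM in TRAP and 1969 ± 542 CPM in controls, and eIF4E1 156 ± 56.3 CPM in TRAP and 155 ± 26.8 CPM in controls (SD, n = 3 each). Across the 42 members with at least 10 CPM, the median coefficient of variation between libraries was 37.5% in TRAP and 25.5% in controls, against 13.1% and 10.8% in TRAP and control heads. Salivary gland markers were higher in every larval TRAP library, and fat body markers summed to 758 to 927 CPM in TRAP sections and 1702 to 2049 CPM in controls, with 5 of 9 below every control and none called. The part of either in any member's value was not tested.

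In legs, where DIP-gamma motor axons run beside muscle, edgeR called no member, and 0.113% of all 14200 genes were higher and 0.120% lower. At an unadjusted p under 0.05, 5 members were higher (4.68% of all genes) and 0 lower (4.41% of all genes), and DESeq2 called the same 5 higher and 0 lower (background 2.51% and 1.74%). Of these 5 genes, 4 belong to elongation. Every TRAP library lay above both controls for 20 of the 52 members tested, or 38.5%, where 11.8% of all genes did so, and below both for 3 (12.8% of all genes). Restricted to genes averaging 10 CPM or more, 20 of 42 members lay above (47.6%), where 16.6% of all genes did, and 2 lay below (15.6% of all genes). The member median was 0.10, against -0.01 over all genes.

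The elongation factors made up 6 of the 20. eEF1beta had 200, 187 and 211 CPM in TRAP legs and 138 and 104 CPM in control legs (log2 fold change 0.72, SE 0.18, edgeR adjusted p = 0.172, DESeq2 adjusted p = 0.00144). eEF5 had 397, 357 and 388 CPM in TRAP and 272 and 249 CPM in controls (log2 fold change 0.55, SE 0.16, edgeR adjusted p = 0.23, DESeq2 adjusted p = 0.00028). eEF1alpha1 had 1971, 1749 and 1937 CPM in TRAP and 1478 and 1341 CPM in controls (log2 fold change 0.42, SE 0.16, edgeR adjusted p = 0.42, DESeq2 adjusted p = 0.012). In all 3 genes the lowest TRAP library was well above the higher control. The anchoring subunit eEF1gamma had 184, 155 and 162 CPM in TRAP and 127 and 124 CPM in controls (log2 fold change 0.41, edgeR adjusted p = 0.454, DESeq2 adjusted p = 0.0495). eEF1delta and eEF2 completed the 6 with smaller log2 fold changes of 0.25 and 0.17. The other 2 elongation genes did not separate the groups. The rare eEFSec had 3.12, 1.495 and 3.08 CPM in TRAP legs and 2.23 and 6.61 CPM in control legs. eEF1alpha2 stood at 148, 157 and 177 CPM in TRAP and 166 and 162 CPM in controls, and its part of the eEF1alpha level per kb was 6.52%, 7.67% and 7.83% in TRAP legs against 9.44% and 10.1% in control legs.

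The largest fold change in legs among members of at least 10 CPM was that of eIF4B (FBgn0020660; chromosome 3L, 27842669 to 27858271), an RNA-binding partner of eIF4A. It had 59.4, 77.1 and 106 CPM in TRAP legs and 45.2 and 24.4 CPM in control legs. Both groups varied widely without overlap, and the log2 fold change of 1.21 (SE 0.31) had an edgeR adjusted p of 0.179 and a DESeq2 adjusted p of 0.00917. eIF4A itself averaged 497 ± 17.2 CPM in TRAP legs (SD, n = 3) and 416 ± 9.44 CPM in control legs (SD, n = 2), and eIF4H1 had 67.2, 77.2 and 75.7 CPM in TRAP and 58.2 and 58.4 CPM in controls, both without a call. The scaffold eIF4G1 was among the 3 members below both controls, with 61.8, 66.4 and 62.2 CPM in TRAP and 73.2 and 67.5 CPM in controls. Among members of at least 10 CPM the lowest log2 fold change belonged to eIF5B, which joins the ribosomal subunits, with 27.0, 26.04 and 16.5 CPM in TRAP and 26.5 and 29.1 CPM in controls (-0.26), followed by eIF2Bgamma (-0.22), and the groups overlapped in both.

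The eIF3 subunits eIF3f1, eIF3g1, eIF3h, eIF3i, eIF3j, eIF3l and eIF3m and the eIF2alpha and eIF2gamma subunits also lay above both leg controls. Their fold changes were small, and eIF3l had the highest, 0.38 on the log2 scale (edgeR adjusted p = 0.624). No eIF2B subunit separated the groups. pAbp had 474, 509 and 518 CPM in TRAP legs and 469 and 423 CPM in control legs, and eIF4E1 averaged 257 ± 15.1 CPM in TRAP and 248 ± 0.797 CPM in controls. Cytosolic ribosomal protein genes lay above both controls for 82 of 92 genes, with a median log2 fold change of 0.77. edgeR called none of them, 82 had an unadjusted p under 0.05, and DESeq2 called 80 higher. Muscle markers lay below both controls for 9 of 11 genes, none called, and with 2 controls every such separation rests on few libraries; the part of muscle in these values was not tested.

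**Figure D4:**
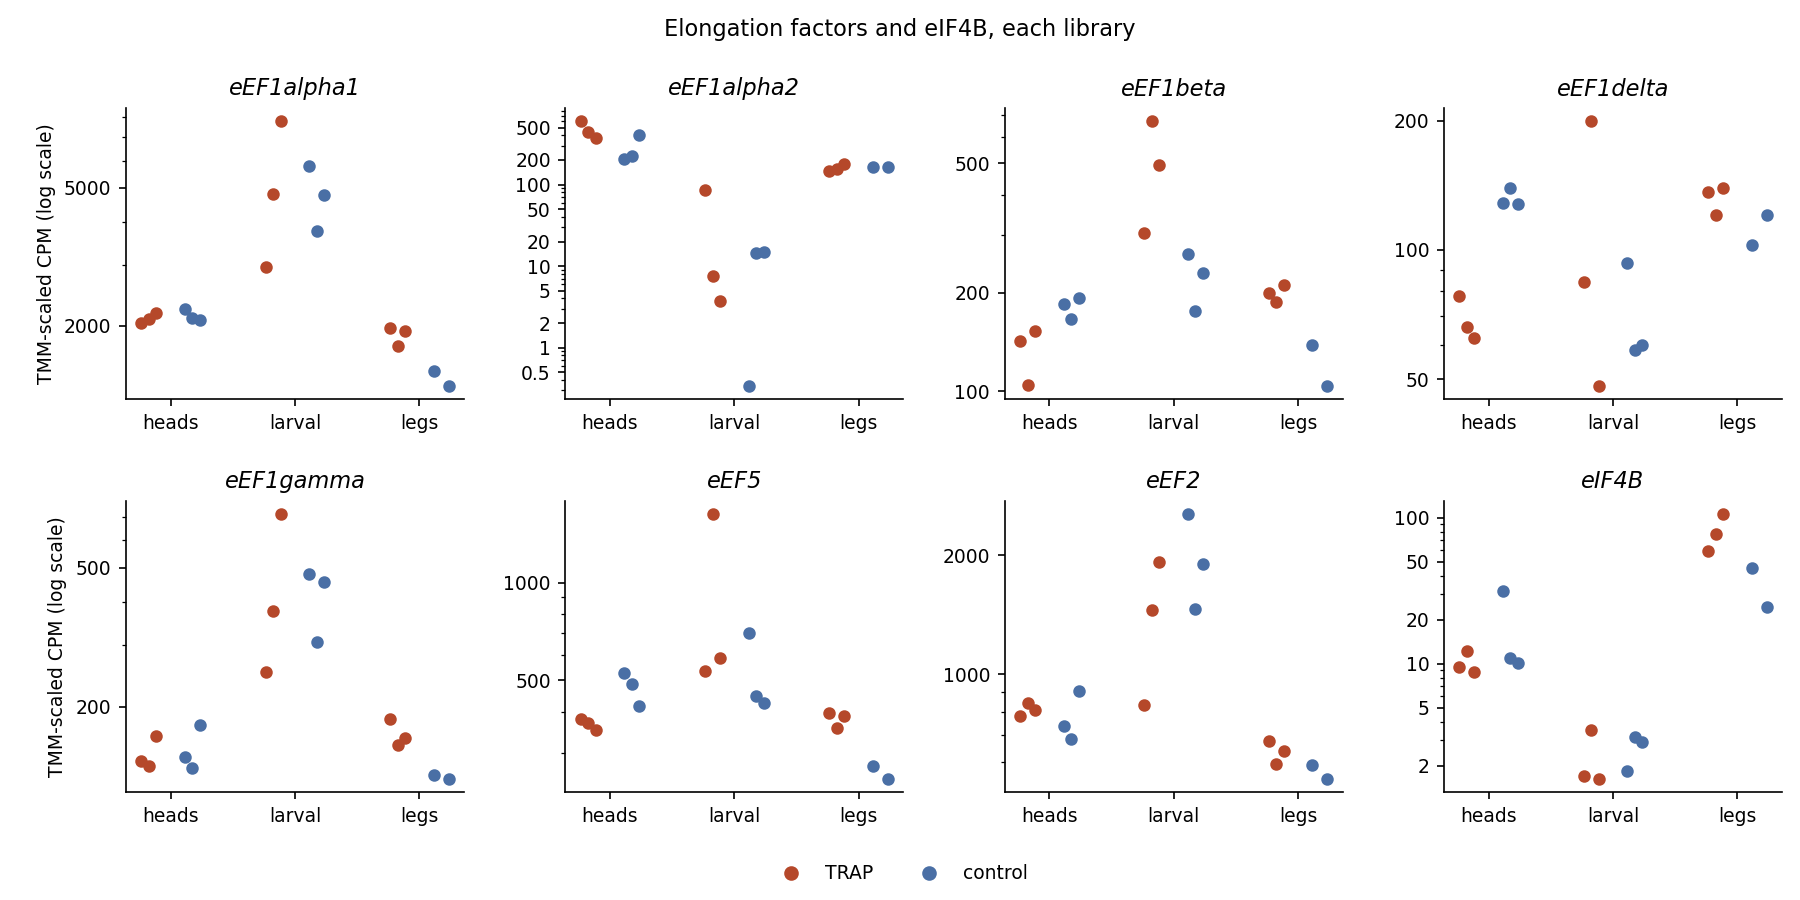
TMM-scaled CPM (y axis, log scale) of 7 elongation factors and eIF4B in each library of heads, larval sections and legs (x axis), TRAP in red left of control in blue. In legs the TRAP values of eEF1alpha1, eEF1beta, eEF1delta, eEF1gamma, eEF5, eEF2 and eIF4B lie above both controls, in heads those of eEF1beta, eEF1delta and eEF5 lie below all controls, and the larval values scatter most.

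Whether the comparison of TRAP with control differed between tissues was tested as an interaction. For legs minus heads 4 of 52 members tested were positive and 0 negative, where 5.49% of all 14132 genes were positive and 3.33% negative. The share of members called was thus close to that of all genes called in either direction. The 4 were eEF1delta (difference of log2 fold changes 1.18, SE 0.21, edgeR adjusted p = 0.0145), eIF2Balpha (0.92, SE 0.20, edgeR adjusted p = 0.0234), eEF5 (0.93, SE 0.21, edgeR adjusted p = 0.0238) and eEF1beta (1.15, SE 0.28, edgeR adjusted p = 0.0329). After TMM scaling all 4 were lower in every TRAP library of heads. They had positive log2 fold changes in legs, and 3 of them act in elongation. With library size alone the head log2 fold changes were -0.47 (eEF1delta), -0.33 (eIF2Balpha), 0.11 (eEF5) and 0.05 (eEF1beta). eIF4B had the largest difference among members of at least 10 CPM in both tissues, 2.02, and missed the threshold (edgeR adjusted p = 0.0681), and those of eIF4EHP (-0.94) and eEF1alpha2 (-0.77) were not called. Of the 11 fits that left out 1 library, eEF1delta was called in 8, eIF2Balpha in 5, eEF5 in 5 and eEF1beta in 3. No member was called without head TRAP replicate 2 or without either leg control, 1 was called without head control replicate 1 or 2, and 6 were called without head TRAP replicate 3. Scaled by library size alone, eEF1delta was called (0.71), whereas eEF1beta (0.67), eIF2Balpha (0.44) and eEF5 (0.44) were not.

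**Figure D5:**
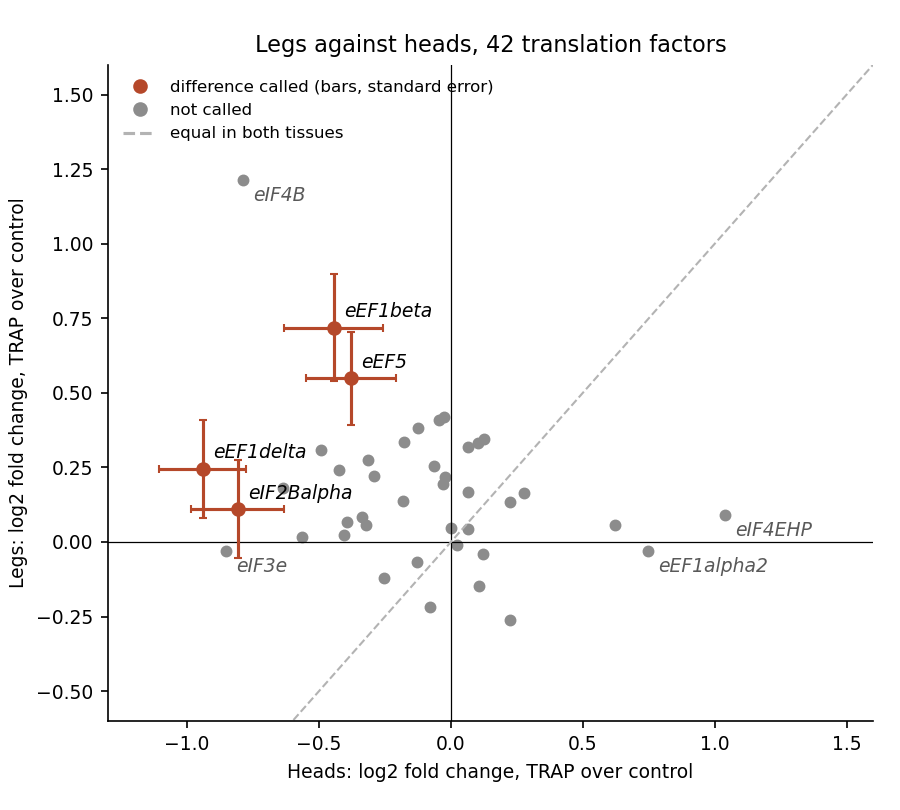
Log2 fold change of TRAP over control in legs (y axis) against heads (x axis) for the 42 translation factors with at least 10 CPM in both tissues. Red points with standard error bars are the 4 factors whose difference was called, all left of 0 in heads and above 0 in legs, and 31 of the 42 points lie above the dashed line of equality.

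For larval sections minus heads no member was called (0.0303% of all genes, smallest edgeR adjusted p = 0.444), and 4 had an unadjusted p under 0.05 (9.26% of all genes). For legs minus larval sections none was called (0.0212% of all genes, smallest edgeR adjusted p = 0.793), and 2 had an unadjusted p under 0.05 (6.16% of all genes). Each tissue has a batch number of its own in the labels, so tissue and batch cannot be told apart in any of these comparisons, nor can the driver where larvae are involved. Between legs and heads the sex of the flies also differed and cannot be told apart from tissue.

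Genes that act around the translation factors were read from the same fits. Of 25 regulators of cap binding and of eIF2, 1 was higher and 4 were lower in TRAP heads, against 7.23% and 9.41% of all genes and, for genes averaging 10 CPM or more, 11.2% and 19.7%. Thor, the 4E-BP that competes with eIF4G for eIF4E, averaged 99.4 ± 16.4 CPM in TRAP heads and 196 ± 25.7 CPM in control heads (SD, n = 3 each; log2 fold change -0.98, edgeR adjusted p = 0.00687). crc, the ATF4 transcription factor that responds to phosphorylated eIF2, averaged 1179 ± 59.7 and 2237 ± 66.3 CPM in TRAP and controls (log2 fold change -0.92, edgeR adjusted p = 0.00565). Rheb, the GTPase that activates the kinase Tor, fell by 0.84 on the log2 scale and poly by 0.78, while the kinase gene S6kII was higher by 0.97. Of 20 aminoacyl-tRNA synthetases only SerRS was called (log2 fold change -1.11), of 6 recycling and rescue genes only MCTS1 (-1.118), and of 8 mitochondrial translation factors none. Of 93 cytosolic ribosomal protein genes, RpL10Ab was higher (1.87) and RpS15Ab lower (-0.75) in TRAP heads. RpL10Ab averaged 2855 ± 1620 CPM in TRAP heads and 779 ± 163 CPM in control heads (SD, n = 3 each). The driven transgene carries a ribosomal protein named RpL10, and whether its reads were counted on RpL10Ab was not tested. In larval sections and legs edgeR called no gene of these 5 lists, but 68 of 93 ribosomal protein genes in larval sections and 82 of 92 in legs were higher at an unadjusted p under 0.05. DESeq2 called 55 of the 93 higher in larval sections and 80 of the 92 in legs. In larval sections 69 of the 93 lay above every control and their median log2 fold change was 1.61. In the other 4 lists DESeq2 called 1 mitochondrial factor lower in larval sections and 1 recycling gene higher in legs.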

How the data were processed

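Ribosome-bound RNA of 17 samples was amplified with SMART-Seq HT and sequenced by the authors. The deposited values are raw counts per gene. Before deposit the authors used Trim Galore for trimming, HISAT2 2.2.1 for alignment to BDGP6, SAMtools 1.12 and, for counting, SeqMonk. Strand setting and counting unit are not given in the sources used here. CG42557 and CG42558, which overlap eIF2Balpha, had equal mean levels in every group. CG46312, which overlaps eIF5 on the same strand, averaged 172 CPM in TRAP heads, against 190 CPM for eIF5. Whether overlapping genes share reads was not tested.

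Groups come from the sample labels. Within a tissue, genes counted at least once in any library entered edgeR 4.0.16 (TMM, quasi-likelihood F-test) in R 4.3.3. DESeq2 1.42.0 was an alternative. Other alternatives changed scaling, filter, threshold, samples fitted, block or replicates. The code was tested on simulated data. No replicate pair agreed within sampling noise (lowest chi-square per gene 54.5).

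In heads, samples of the same number deviated together (r = 0.248, 0.136 and 0.112 for replicates 1 to 3), although TRAP replicate 3 and control replicate 2 had r = 0.2035. The reported head tests did not pair the samples, and the replicate number was a block only in an alternative. Larval and leg samples of the same number did not deviate together in this way.

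Members and lists were chosen with earlier results of these data known. Named by rule were called members, the 4 highest and 3 lowest fold changes among members of at least 10 CPM and the 3 most abundant, all per tissue, and both eEF1alpha genes, eEF2, pAbp and eIF4E1. Other members named with values were chosen after their values were seen. Exon lengths come from Ensembl annotation with matching coordinates.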

Additional observations from a re-analysis of the deposited data

Results flagged for a closer look

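Differences of TRAP against control between legs and heads passed the edgeR interaction test for 4 of 52 translation factors, all positive. Of all 14132 genes, 5.49% were positive and 3.33% negative, so the share of members called was close to that of all genes. The calls depended on single libraries, as given above. The difference (legs minus heads, log2) was 1.185 for eEF1delta, 1.153 for eEF1beta, 0.9261 for eEF5 and 0.9187 for eIF2Balpha. After TMM scaling the TRAP libraries were lower than controls in heads for each gene, whereas the fold change in legs was positive. With library size alone the head log2 fold changes of eEF5 (0.11) and eEF1beta (0.05) were not negative.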

How the results depend on the processing

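In heads, members higher in TRAP numbered 1 in the reported test, 4 with DESeq2, 4 with DESeq2 after a filter on at least 1 count in every sample (added after seeing the data), 9 with library size alone, 0 with all 3 tissues in 1 fit and 0 at an adjusted p of 0.01; members lower numbered 3, and 1 with library size alone, 0 with all tissues and 1 at 0.01. Of all genes in heads, 7.23% were higher in the reported test, 12.4% with DESeq2 and 17.5% with library size alone. Lower were 9.41%, 10.9% and 2.78% in the same order. The member median was 0.43 with library size alone and -0.16 with all tissues. With the replicate number as a block, 2 members were higher and 4 lower in heads (8.45% and 10.4% of all genes). In larval sections DESeq2 and the fit of all tissues each called 1 member higher, and the median was -0.21 with library size alone, where the median of all genes moved by -0.23. In legs DESeq2 called 5 higher and, with the filter, 4, and the median was 0.13 with filterByExpr, 0.15 with at least 1 count in every sample in edgeR and in DESeq2, 0.021 with all tissues, 0.14 with members of at least 1 CPM and 0.14 without eIF4EHP, eIF6, eIF2D and eEFSec. The cause of these shifts was not tested. DESeq2 called 1.35% of all genes higher in larval sections and 2.51% in legs. Shares over all genes are not given here for the other settings, so their counts of members stand without a background.

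Leaving out 1 library gave 0 to 3 higher and 1 to 6 lower members in heads, with a median between -0.22 and -0.010. In larval sections it gave 0 to 0 calls and a median between -0.16 and 0.20, and in legs 0 to 0 calls and a median between 0.10 and 0.15. The legs minus heads difference, left out in the same way as an alternative added after seeing the data, gave 0 to 6 members. In larval sections and legs the shared replicate numbers were not a pairing (r between -0.451 and 0.0613 in larvae and -0.0833 and -0.0388 in legs), and the block called 0 members in both. With library size alone the legs minus heads test gave 4 members, of which only eEF1delta was among the 4 reported.

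Depth set a floor of 3 counts, at most 0.102 CPM. p-values set a difference between groups against the spread between these samples.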
